A study of Mus musculus with 8 samples.

Results

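The genes examined were 7 that encode proteins of the compact myelin sheath or of the membranes and cytoplasm next to it: *Mbp*, *Mobp*, *Cnp*, *Cldn11*, *Mal*, *Gpm6b* and *Pllp*. They were chosen by name, as the entries of the deposited expression table whose symbol was one of these, and all 7 were found among 23427 entries. Every one of them was also among the 12208 genes that passed a filter on low values (2 or more libraries reaching an FPKM of 1). FPKM is the number of sequenced fragments of a gene per kilobase of transcript, divided by the mapped fragments of the library. The mRNA came from primary mouse OPCs (oligodendrocyte precursor cells) maturing into OLs (oligodendrocytes), sampled daily from Day 0 to Day 3 of differentiation, with 2 replicates a day and 8 libraries in all. All groups were wild-type C57BL/6J cells, immunopanned with an antibody against PDGFRα out of cortical tissue of 3 pups aged 7 postnatal days. The groups differ in the days since PDGF-AA was withdrawn and the thyroid hormone T3 was added, and Day 0 is the starting OPC culture. The series was made to follow the expression of genes of interest in this course, and the question put to it here is in what order and by how much the 7 genes changed.

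Myelin is a stack of OL membrane wrapped around an axon, in which the cytoplasm is squeezed out so that the inner faces of the membrane meet. Myelin basic protein, from *Mbp*, holds these inner faces together, and its mRNA is carried out to the processes of the cell and translated there. OPCs divide and express PDGFRα, and on leaving the cell cycle they switch on the myelin genes and the enzymes of myelin lipid synthesis. The 7 genes fall into 3 roles: the small basic proteins of the inner face (*Mbp* and *Mobp*), the proteins of noncompacted or sealed regions (*Cnp*, an enzyme that keeps cytoplasmic channels open, and *Cldn11*, the tight junction protein of myelin), and 4-span membrane proteins that travel with myelin lipids (*Mal*, *Pllp* and *Gpm6b*, the last being a relative of the main proteolipid of myelin).

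The libraries showed the OPC and OL markers of their labels. *Pdgfra* and *Cspg4*, the OPC markers, summed to 542 and 462 FPKM on Day 0 and to 30.2 and 7.31 on Day 3 (replicates 1 and 2). *Mag* and *Mog*, the OL markers, summed to 9.09 and 12.8 FPKM on Day 0 and to 1227 and 1882 on Day 3. The sums of the astrocyte and neuron markers moved with the replicate number and with the day, but not every marker did. The summed FPKM of 5 astrocyte markers was 49.4, 43.7, 42.2 and 67.3 from the first to the last day in replicate 1, and 243, 386, 525 and 797 in replicate 2. That of 5 neuron markers was 64.4, 79.7, 131 and 233 in replicate 1 and 31.4, 40.2, 60.0 and 115 in replicate 2, nearly all of it *Tubb3* (231 and 113 FPKM on Day 3). *Rbfox3* and *Stmn2*, also neuron markers, stayed under 1 FPKM, and *Snap25* was at 2.15 and 8.46 on Day 0 and at 0 and 1.48 on Day 3. Their part in the changes by day was not tested. The microglial markers summed to at most 2.51, with *Aif1*, *Cx3cr1*, *Csf1r* and *C1qa* at 0 in every library, the endothelial markers to at most 0.428, the mural markers to at most 2.20 and the Schwann cell markers, a check because Schwann cells make myelin as well, to at most 6.18. The depth, estimated from the steps between low values, was between 950000 and 1520000 fragments a library, which limits the low genes most. In bulk RNA, fewer cells of a type cannot be told apart from less RNA per cell.

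Sequences upstream of 4 of the genes are printed because they stand at opposite ends of the results: *Mobp* and *Mal* had the lowest levels on Day 0, *Cnp* was already high there, and *Gpm6b* was the member whose level was lower on Day 3. Each runs 5′ to 3′ on the strand of the gene and ends before the first base of the gene in GENCODE M21. The sequences come from RefSeq (GRCm38.p6, with a promoter entry for 6 of the 7 members). Counted back from the RefSeq start, the last base printed is base 36 for *Mobp* and *Cnp*, 33 for *Gpm6b* and 1 for *Mal*. Capitals mark matches on either strand to the Sox-type core ACAANG, to the Myrf motif CTGGNAC and to the TCF/LEF motif CTTTGA. The promoters of *Cldn11*, the highest of the 7 on Day 0, and of *Pllp* are not printed and held no match to these motifs.
Mobp, chr9:120149492-120149706, plus strand: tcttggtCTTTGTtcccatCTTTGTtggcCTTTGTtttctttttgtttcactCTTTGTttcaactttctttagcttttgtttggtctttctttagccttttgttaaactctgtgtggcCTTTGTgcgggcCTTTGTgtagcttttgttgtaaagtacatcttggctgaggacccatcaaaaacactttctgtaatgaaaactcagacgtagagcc
Mal, chr2:127656696-127656945, minus strand: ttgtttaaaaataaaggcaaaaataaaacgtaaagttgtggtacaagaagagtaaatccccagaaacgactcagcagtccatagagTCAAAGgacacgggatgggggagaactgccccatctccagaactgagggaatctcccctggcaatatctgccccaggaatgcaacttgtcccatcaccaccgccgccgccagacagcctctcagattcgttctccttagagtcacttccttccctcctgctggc
Cnp, chr11:100574689-100574903, plus strand: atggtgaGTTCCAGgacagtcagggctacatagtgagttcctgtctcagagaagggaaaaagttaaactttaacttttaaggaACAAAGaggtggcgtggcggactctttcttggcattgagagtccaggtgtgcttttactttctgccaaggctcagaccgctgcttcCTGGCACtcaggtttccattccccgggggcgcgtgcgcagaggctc
Gpm6b, chrX:166238693-166238910, plus strand: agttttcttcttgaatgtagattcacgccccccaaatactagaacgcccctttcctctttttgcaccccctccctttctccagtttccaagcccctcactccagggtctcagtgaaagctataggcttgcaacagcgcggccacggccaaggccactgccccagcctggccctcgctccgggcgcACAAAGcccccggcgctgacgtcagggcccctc

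In the *Mobp* window all 6 matches in capitals were the Sox-type core, read as CTTTGT, and they lay between 115 and 243 bases before the RefSeq start. Over the 250 bases before the start, of which 215 are printed for *Mobp*, 5 of 32851 promoters (0.0152%) held as many. That share was computed for this motif in this promoter only. The 250 bases of *Mobp* had 40.8% GC, against a median of 52.4% over all promoters, and the share makes no allowance for this. In the *Cnp* window the capitals are 1 Sox-type core (ACAAAG) and 2 Myrf motifs (GTTCCAG and CTGGCAC). *Gpm6b* held 1 Sox-type core, and *Mal* held only the TCF/LEF motif, read as TCAAAG. The Sox-type core and the TCF/LEF motif can share letters, but no match in capitals belonged to both. Over the 250 bases before the start of all promoters, 36.3% held the Sox-type core, 16.1% the Myrf motif and 13.8% the TCF/LEF motif, against 3, 1 and 1 of the 6 member promoters. The E-box CAGCTG (13.0% of all promoters), the thyroid hormone half-site AGGTCA (14.0%) and the TATA box TATAAA (12.4%) were in none of the 6. The GC box GGGCGG (32.7%) was in 2, *Cnp* and *Pllp*. These counts describe letters and no binding was measured.

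*Mbp* (chromosome 18, 82475146 to 82585637, GRCm38, plus strand) was at 65.2 and 82.2 FPKM on Day 0, at 344 and 530 on Day 1, at 3499 and 6328 on Day 2 and at 8753 and 11945 on Day 3, for replicates 1 and 2. Each day lay above the day before it with no overlap of replicates. On Day 3 it held the highest FPKM of the whole table in both libraries, after rank 1138 and 856 on Day 0, then 137 and 65 on Day 1, then 3 and 1 on Day 2. The mean of Day 3 was 140 times that of Day 0. On log2(FPKM + 1), the scale of all tests here, limma gave a log2 fold change of 7.11 (SE 0.32, adjusted p = 4.78e-05). Only *Mobp* had a larger value among the 12208 genes tested.

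*Mobp* encodes a small basic protein of the same membrane face. It lies on the plus strand of chromosome 9 (120149707 to 120181484). It was at 0.407 and 2.36 FPKM on Day 0, at 7.18 and 2.02 on Day 1, at 35.3 and 99.1 on Day 2 and at 432 and 1227 on Day 3. Day 0 and Day 1 overlapped, and each later day lay above all earlier libraries. Its Day 3 mean was 600 times its Day 0 mean, but Day 0 rests on few fragments. At a transcript length of 1536 bases it held about 5, and the 95% counting interval of this ratio ran from 257 to 1849. At the longest annotated transcript, 3286 bases, it held about 11, with an interval from 335 to 1202. Both cover counting error only, and the length behind the FPKM is not given in the sources used here. Its fitted log2 change was 8.39 (SE 0.71, limma adjusted p = 1.32e-04), the highest of all genes tested. *Mobp* moved from rank 12395 and 10426 in the Day 0 libraries to rank 68 and 11 on Day 3. It shares 79 exon bases with *Gm38642*, a noncoding gene on the same strand.

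*Cnp*, the gene of the 2′,3′-cyclic nucleotide phosphodiesterase, was abundant before differentiation. It was at 474 and 411 FPKM on Day 0, at 1082 and 1365 on Day 1, at 2072 and 2459 on Day 2 and at 1962 and 2160 on Day 3. Days 0, 1 and 2 did not overlap, while Day 3 overlapped Day 2. Between Day 0 and Day 3 it gained 2.22 on the log2 scale (SE 0.18, limma adjusted p = 1.18e-04), a ratio of means of 4.66. *Cnp* (chromosome 11, 100574904 to 100591729) overlaps *Dnajc7* on the other strand with 154 shared exon bases, and the daily means of *Dnajc7* were 81.6, 101, 75.3 and 66.5 FPKM. The libraries were made with a stranded kit, but whether fragments were counted by strand is not given in the sources used here.

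*Cldn11* (chromosome 3, 31149920 to 31164324) was the highest of the 7 on Day 0. It was at 705 and 521 FPKM on Day 0, at 1125 and 868 on Day 1, at 2415 and 2514 on Day 2 and at 2960 and 2771 on Day 3. All 4 days were separate and ascending. Its log2 change was 2.24 (SE 0.20, limma adjusted p = 1.51e-04) and its ratio of means 4.68, next to 4.66 for *Cnp*.

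*Mal* encodes a proteolipid that sorts membrane with glycolipids, and was the lowest of the 7 on Day 0. Its locus is chromosome 2, minus strand, 127633226 to 127656695. It was listed at 0 and at 0.312 FPKM on Day 0, at 0 and 0.300 on Day 1, at 3.55 and 1.73 on Day 2 and at 20.1 and 65.4 on Day 3. The values of Day 0 and Day 1 correspond to 0 or 1 fragment, and 3 fragments would be 0.711 to 0.891 FPKM in these libraries. Day 2 lay above both earlier days and Day 3 above Day 2. The ratio of the Day 3 to the Day 0 mean was 274, with a counting interval from 49.2 to 10818 because Day 0 held 1 fragment at a transcript length of 2778 bases. Its log2 change was 5.03 (SE 0.54, limma adjusted p = 3.06e-04), which the pseudocount of 1 holds down. *Mal* reached 1 FPKM only on Days 2 and 3. It thus passed the filter on low values only through the later days, and its calls are not independent of that filter.

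*Pllp* encodes plasmolipin, a membrane protein of the same family as *Mal*. Its locus is chromosome 8, minus strand, 94674894 to 94696278. It was at 4.14 and 16.4 FPKM on Day 0, at 12.5 and 30.6 on Day 1, at 15.2 and 60.4 on Day 2 and at 34.0 and 77.4 on Day 3. Successive days overlapped, but Day 3 lay above Day 0, and within each replicate number every day was above the one before. Its log2 change was 2.47 (SE 0.78, limma adjusted p = 0.0366). This call was lost without Day 0 replicate 1 (1.59, adjusted p = 0.225 from limma) and without Day 3 replicate 2 (1.89, adjusted p = 0.191 from limma). An antisense gene, *Gm45767*, shares 1128 exon bases with it.

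*Gpm6b*, a proteolipid found in neurons and glia alike, had the opposite direction. It lies on chromosome X (166238911 to 166388988). It was at 334 and 283 FPKM on Day 0, at 483 and 288 on Day 1, at 312 and 205 on Day 2 and at 214 and 162 on Day 3. Both Day 3 libraries lay below both Day 0 libraries, while Day 1 overlapped Day 0 and Day 2 overlapped both. Its log2 change was -0.72 (SE 0.28, limma adjusted p = 0.0775), or -0.41 once the median change of all genes, -0.31, was subtracted. With the replicate number as a block the adjusted p of *Gpm6b* was 0.00592 (limma).

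**Figure D1:**
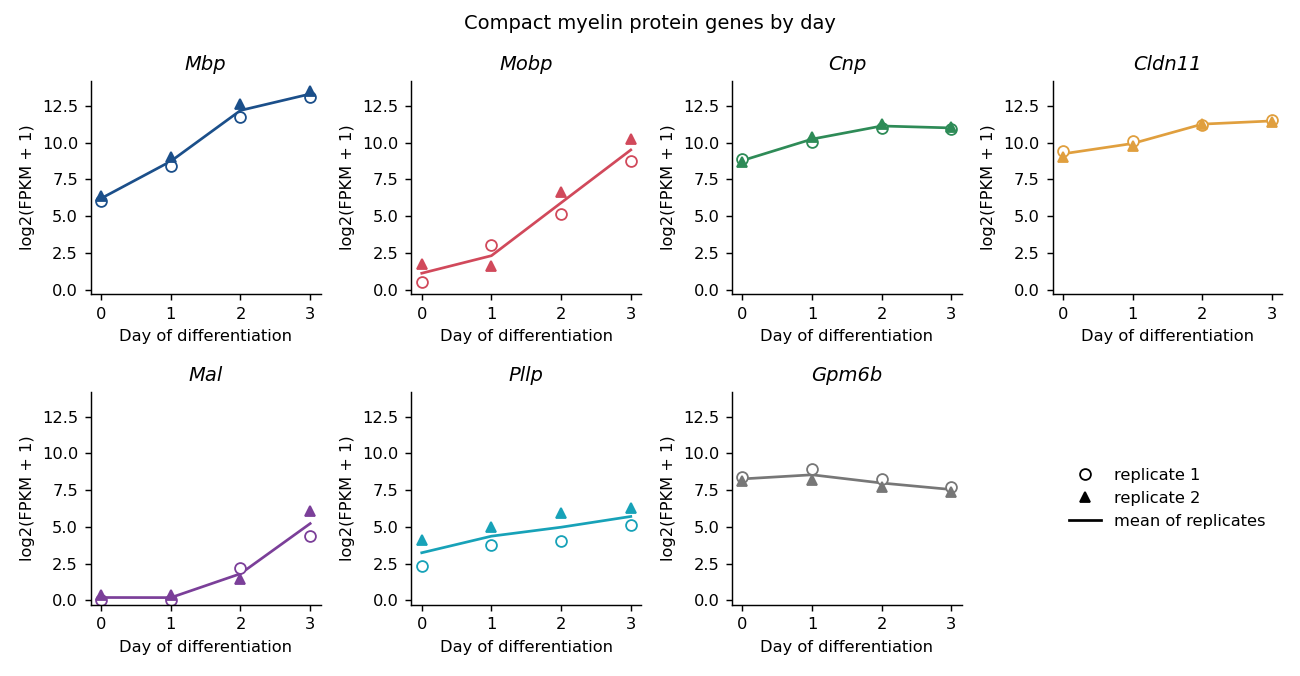
Expression of the 7 genes as log2(FPKM + 1) against the day of differentiation, with open circles for replicate 1, filled triangles for replicate 2 and lines through the means (n = 2 a day). *Mbp* reaches 8753 and 11945 FPKM on Day 3, *Cnp* levels off after Day 2, *Mal* stays near 0 until Day 1, and *Gpm6b* is lower on Day 3 than on Day 0 in both replicates.

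Thus 6 of the 7 genes were higher and 0 lower on Day 3 than on Day 0, against 12% of all genes tested that were higher and 26.3% that were lower. The 6 include *Mal*, which passed the filter only through Days 2 and 3. With the block, 6 were higher and *Gpm6b* lower (13.2% and 29.1% of all genes). The median log2 fold change of the 7 was 2.47 and that of all genes -0.31. The replicates of Day 3 and Day 0 did not overlap for any of the 7, with 6 above and 1 below, against 22.8% of all genes above and 48.6% below. *Mobp* and *Mbp* ranked 1 and 2 of 12208 by log2 fold change, *Mal* 11, *Pllp* 225, *Cldn11* 287, *Cnp* 293 and *Gpm6b* 8512. In replicate 1 alone and replicate 2 alone, the log2 changes were 7.05 and 7.17 for *Mbp* and 8.27 and 8.51 for *Mobp*. Those of *Pllp* were 2.77 and 2.17, and those of *Gpm6b* -0.64 and -0.80. These values were taken after seeing the astrocyte markers. Their signs follow from the lack of overlap and are no separate check.

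The order of levels changed each day. On Day 0 it ran *Cldn11*, *Cnp*, *Gpm6b*, *Mbp*, *Pllp*, *Mobp*, *Mal*, with no overlap between neighbours. On Day 1 *Cnp* stood above *Cldn11* and *Mbp* above *Gpm6b*, both within overlapping replicates. On Day 2 *Mbp* led, followed by *Cldn11* and *Cnp*, which overlapped, *Gpm6b*, then *Mobp* and *Pllp*, which overlapped, and *Mal*. On Day 3 the order was *Mbp*, *Cldn11*, *Cnp*, *Mobp*, *Gpm6b*, *Pllp* and *Mal*, and only the last 2 overlapped. *Mobp* thus passed *Pllp* and *Gpm6b*, and *Mbp* passed *Gpm6b*, *Cnp* and *Cldn11*.

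The 7 genes together took up 0.393% and 0.324% of the summed FPKM of the Day 0 libraries, then 0.799% and 0.814% on Day 1. The share was 2.28% and 3.12% on Day 2 and reached 3.92% and 5.12% on Day 3, with no overlap of days. *Mbp* was most of this gain. It made up 4.12% and 6.24% of the sum of the 7 genes on Day 0. By Day 1 this was 11.3% and 17.2%, by Day 2 41.9% and 54.2%, and by Day 3 60.9% and 64.9%. Without *Mbp*, the other 6 went from 0.377% and 0.303% of the library on Day 0 to 0.709% and 0.674%, 1.33% and 1.43%, and 1.53% and 1.80% on the later days. *Cldn11* went from 44.5% and 39.6% of the 7 on Day 0 to 20.6% and 15.1% on Day 3 while its own FPKM rose, and *Gpm6b* from 21.1% and 21.5% to 1.49% and 0.877%. FPKM is relative to the library, so a larger share of some genes leaves less for the others.

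**Figure D2:**
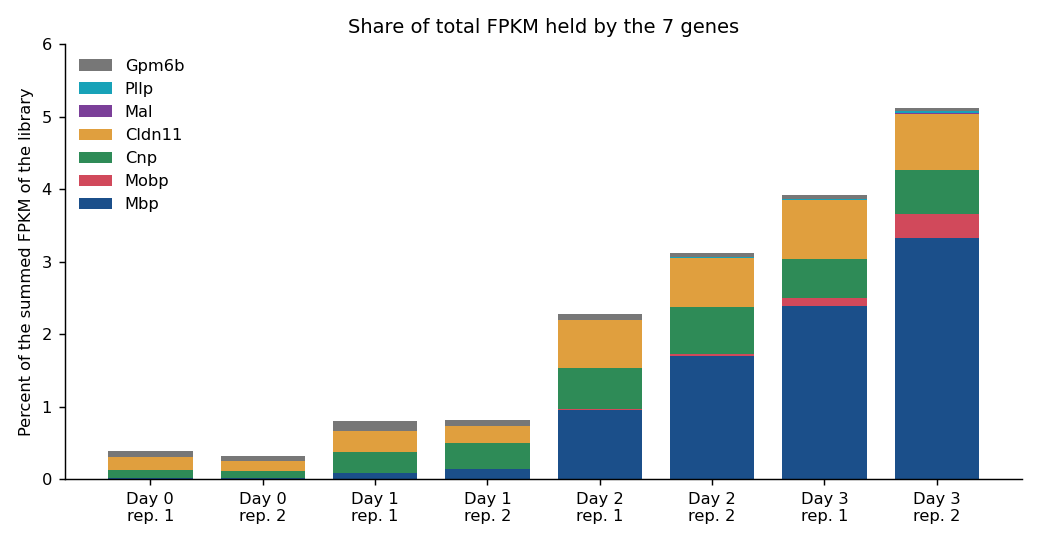
Percent of the summed FPKM of each library held by the 7 genes, stacked by gene, for the 8 libraries (rep., replicate). The stack grows from 0.393% and 0.324% on Day 0 to 3.92% and 5.12% on Day 3, and *Mbp*, at the bottom, becomes its largest block on Day 2.

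The rise was divided by day to see which genes led. For each library, its distance from the Day 0 mean was given as a percent of the distance between the Day 0 and Day 3 means, on log2(FPKM + 1). *Cnp* was the earliest by its mean, with 58.2% and 73.3% of its rise made by Day 1 and 100.4% and 111.5% by Day 2. *Mbp* had made 31.2% and 40.0% by Day 1 and 78.2% and 90.3% by Day 2. *Cldn11* was close to it, with 23.1% to 39.8% by Day 1 and 89.0% to 91.6% by Day 2. *Mobp* had made 5.65% to 22.8% by Day 1 and 48.4% to 65.9% by Day 2, below the range of *Mbp* on both days. On this scale *Mal* was the latest, with -3.90% to 3.62% by Day 1 and 24.9% to 39.5% by Day 2. *Pllp* spread from 20.9% to 70.6% by Day 1 and from 31.5% to 109% by Day 2. These ranges hold those of *Mbp* and overlap those of *Cnp*. Measured within each replicate number, *Pllp* had made 39.7% to 50.4% by Day 1, between *Mbp* (33.8% to 37.3%) and *Cnp* (58.1% to 72.3%). By Day 2 it had made 59.9% to 83.8%, overlapping *Mbp* (81.2% to 87.2%). This measure assumes that same-numbered libraries belong together. On linear FPKM the shares were smaller for the steep genes. *Mbp* had then made 3.54% of its gain by Day 1 and 47.1% by Day 2 (means), *Mobp* 0.388% and 7.95%, and *Cnp* still 48.3% and 113%. *Cldn11* had made 11.3% to 22.7% by Day 1 and 80.0% to 84.4% by Day 2, above *Mbp* on both days. The place of *Mal* behind *Mobp* on Day 2 depended on the scale: their replicates overlapped on linear FPKM (3.69% to 7.96% for *Mal*, 4.10% to 11.8% for *Mobp*) and with a pseudocount of 0.1 (42.3% to 55.7% and 53.4% to 69.2%). No test was made on these shares.

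**Figure D3:**
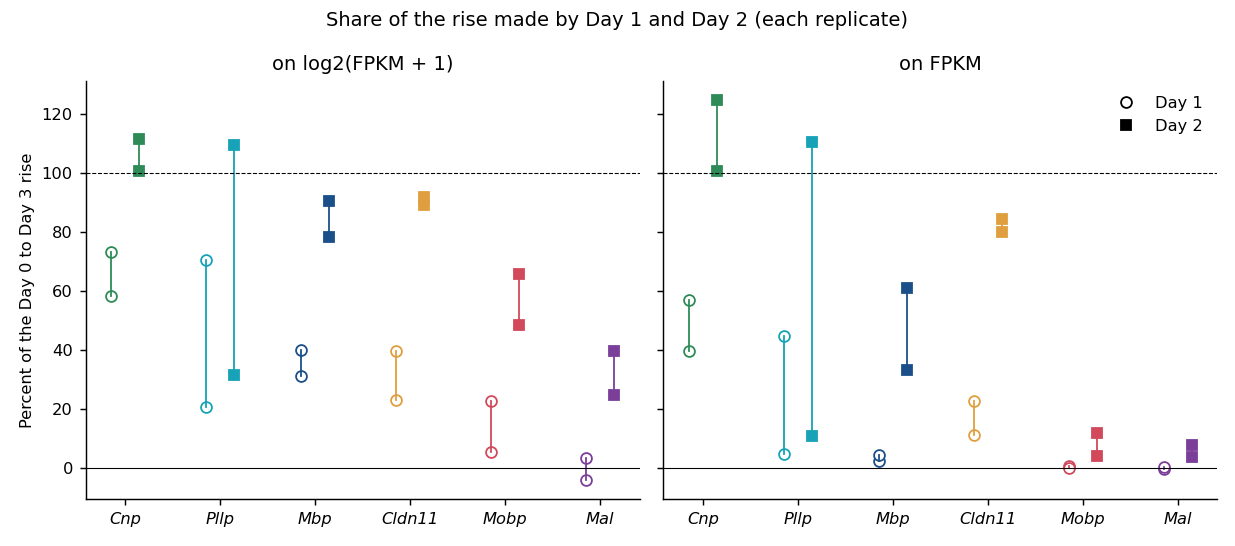
Percent of the Day 0 to Day 3 rise reached on Day 1 (open circles) and Day 2 (filled squares) in each replicate for the 6 genes that rose, on log2(FPKM + 1) at left and on FPKM at right. The dashed line is the Day 3 mean, which *Cnp* had reached by Day 2, while *Mal* had made 24.9% to 39.5% of its rise on the log2 scale.

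Over the first step (Day 0 to Day 1), 2 of the 7 rose and 0 fell, against 5.04% and 7.56% of all genes. These were *Mbp* (log2 change 2.53, SE 0.32, limma adjusted p = 0.00183) and *Cnp* (1.46, SE 0.18, adjusted p = 0.00165). With the block 4 rose and 0 fell (6.09% and 9.01% of all genes), the others being *Cldn11* (0.70, adjusted p = 0.0538 from limma and 0.0281 with the block) and *Pllp* (1.13, adjusted p = 0.408 and 0.0111). *Mobp* was at 1.19 (adjusted p = 0.332), *Gpm6b* at 0.28 (adjusted p = 0.591) and *Mal* at -0.01 (adjusted p = 1), all from limma.

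In the middle step, from Day 1 to Day 2, 4 of the 7 rose and 0 fell (2.16% and 1.73% of all genes, and 3.01% and 3.57% with the block). *Mobp* changed by 3.60 (SE 0.71, adjusted p = 0.0346), *Mbp* by 3.46 (SE 0.32, adjusted p = 0.00330), *Cldn11* by 1.32 (SE 0.20, adjusted p = 0.0159) and *Cnp* by 0.89 (SE 0.18, adjusted p = 0.0369), from limma. This count fell to 2 without any 1 library of Day 0 or Day 1 and to 1 without either library of Day 2, and *Mbp* was called in all 8 fits with a library left out. *Mal* was at 1.63 (adjusted p = 0.131), *Pllp* at 0.61 (adjusted p = 0.681) and *Gpm6b* at -0.56 (adjusted p = 0.286).

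From Day 2 to Day 3, 0 of the 7 passed the threshold in limma (0.246% of all genes were higher and 0.0491% lower), although 3 had an unadjusted p under 0.05. These 3 were called with the block (0.975% of all genes higher and 0.36% lower): *Mobp* at 3.60 (adjusted p = 0.0862 from limma and 0.0415 with the block), *Mal* at 3.41 (0.0558 and 0.0316) and *Mbp* at 1.12 (0.163 and 0.0318). By size of this step they ranked 4, 9 and 336 of 12208. *Cldn11* was at 0.22 (adjusted p = 0.683), *Pllp* at 0.73 (adjusted p = 0.734) and *Gpm6b* at -0.44 (adjusted p = 0.534). *Cnp* was at -0.13 (95% interval -0.54 to 0.28, adjusted p = 0.802) and at 0.19 with quantile normalization.

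**Figure D4:**
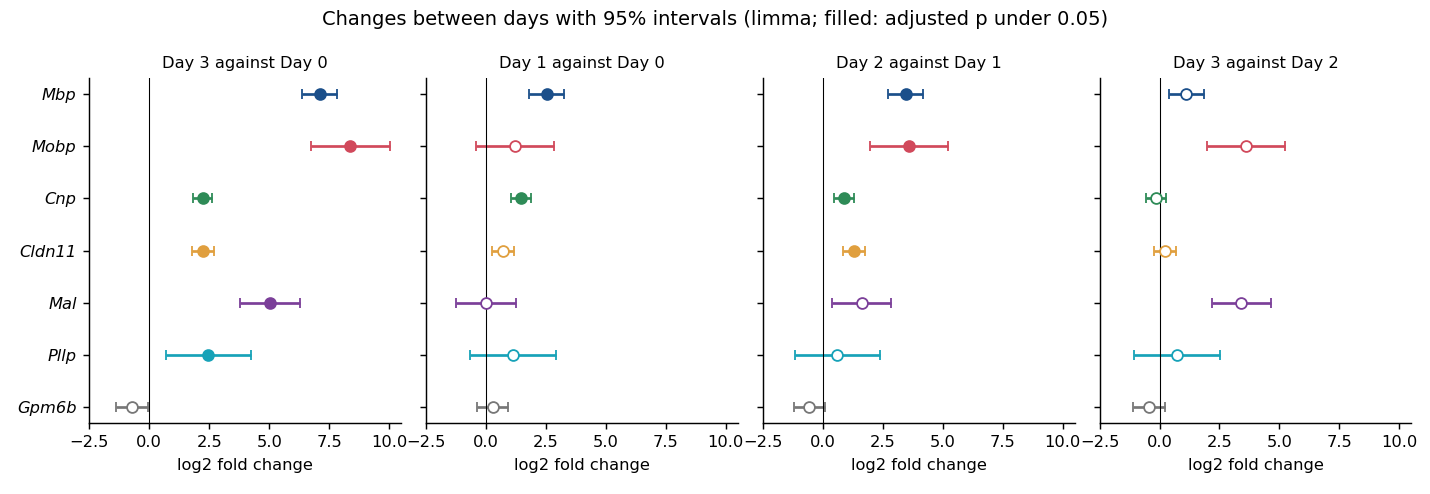
Log2 fold changes of the 7 genes with 95% intervals (limma, all 8 libraries) for Day 3 against Day 0 and for each daily step. Filled points have an adjusted p under 0.05: 6 genes for Day 3 against Day 0, 2 in the first step, 4 in the middle step and 0 in the last.

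Whether a gene's step differed from its step before was tested as a difference of log2 fold changes. For the middle step against the first, 0 of the 7 passed (limma) and 0 had an unadjusted p under 0.05, against 0.688% of all genes with a larger and 0.36% with a smaller middle step (1.85% and 1.17% with the block, which called 0 of the 7 too). For the last step against the middle, 0 of the 7 passed and 3 had an unadjusted p under 0.05: *Mbp* at -2.34 (adjusted p = 0.250), *Cldn11* at -1.10 (adjusted p = 0.351) and *Cnp* at -1.02 (adjusted p = 0.348). In this contrast 0 of the 12208 genes (0%) passed, with or without the block, and 1233 had an unadjusted p under 0.05. These differences are therefore given as values only. The same contrast was at 1.78 for *Mal* (adjusted p = 0.571).

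The course over all 4 days was tested by the slope of log2(FPKM + 1) on day, with an exact permutation test over every arrangement of the libraries, two-sided, since 2 against 2 libraries cannot give a p under 0.333. Here 5 of the 7 genes rose and 0 fell, against 6.93% and 15.9% of all genes. *Mobp* rose by 2.88 per day (exact p = 0.00159, adjusted over all genes 0.0188) and *Mbp* by 2.48 (p = 7.94e-04, the smallest the test can give, adjusted p = 0.0145, exact). *Cldn11* rose by 0.80 per day (exact p = 7.94e-04, adjusted p = 0.0145). *Mal* (1.67 per day) and *Cnp* (0.75) both had an exact p of 0.00397 and an adjusted p of 0.0281. Arranged within replicate numbers, their adjusted p was 0.0630 (exact). The limit that the filter sets on the calls of *Mal* holds for its slope as well. *Pllp* had a slope of 0.80 (exact p = 0.0325, adjusted p = 0.0918), with an adjusted p of 0.0356 within replicate numbers. *Gpm6b* had a slope of -0.27 (exact p = 0.0698, adjusted p = 0.150).

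*Pllp* was the member with the largest replicate difference averaged over the days, although *Mobp* on Day 1 and *Mobp* and *Mal* on Day 3 had larger ones. Its FPKM was higher in replicate 2 on 4 of 4 days, by 2.28 to 3.97 times, a log2 difference of 1.52 (SE 0.16, adjusted p = 0.00440, blocked limma fit). In the same fit 83 of the 12208 genes were higher and 45 lower in replicate 2. The 5 astrocyte markers were all higher in replicate 2 (*Aqp4* by 3.97, *Gfap* by 3.55, *Gja1* by 3.32, *Aldh1l1* by 2.33 and *Slc1a3* by 1.27 on the log2 scale). The OPC and OL markers differed as well. On Days 1, 2 and 3 the OPC sum was 83.3, 30.8 and 30.2 FPKM in replicate 1 and 14.4, 5.76 and 7.31 in replicate 2. The OL sum was 73.9, 445 and 1227 in replicate 1 and 132, 787 and 1882 in replicate 2. The part of these markers in the *Pllp* difference was not tested. *Gpm6b* was lower in replicate 2 on all 4 days (-0.50, adjusted p = 0.0967 from limma) and *Mbp* higher on all 4 (0.56, adjusted p = 0.0905). The other 4 genes had adjusted p values from 0.553 to 0.735.

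**Figure D5:**
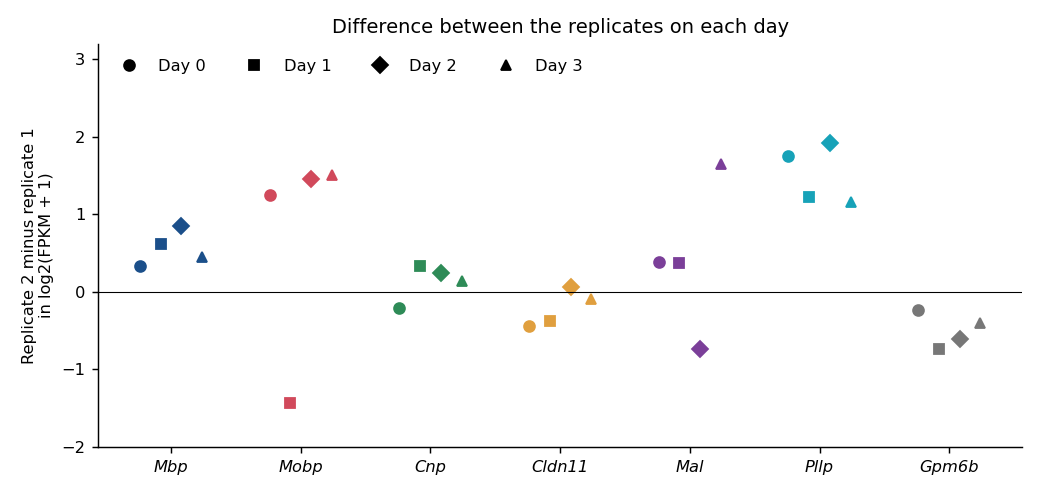
Replicate 2 minus replicate 1 in log2(FPKM + 1) for each gene on each day (circle, square, diamond and triangle for Day 0, 1, 2 and 3). *Pllp* lies above 0 on 4 of 4 days, between 1.16 and 1.92, and *Gpm6b* below 0 on 4 of 4.

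Other genes of myelin and of the OL were set beside the 7. Of 34 such genes listed, 33 were in the table and 30 were tested. From Day 0 to Day 3, 23 of these were higher, 1 lower and 6 not past the threshold, beside 12% higher and 26.3% lower of all genes, and the median log2 fold change was 2.28 (all genes, -0.31). The 23 include *Ermn* (daily means 0.185, 0.116, 2.71 and 43.4 FPKM) and *Hapln2* (0.198, 0.587, 4.64 and 11.9). Both passed the filter only through the later days, so their calls are not independent of it. The highest were *Mag*, an adhesion protein of the innermost wrap (7.08), *Tppp*, which bundles microtubules (5.77), and *Mog*, a protein of the outer surface of myelin (5.73). The lowest were *Bcas1* at 0.06 (adjusted p = 0.905 from limma), *Cd9* at -0.49 (adjusted p = 0.157) and *Omg* at -0.68 (adjusted p = 0.0121), the only one that fell. *Bcas1*, a marker of OLs that are starting to myelinate, had daily means of 519, 1396, 1465 and 585 FPKM. In the first step 18 of the 30 were higher and 0 lower (5.04% and 7.56% of all genes), in the middle step 9 and 1 (2.16% and 1.73%), and in the last step 0 and 0 (0.246% and 0.0491%).

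Relatives of the 7 genes by protein family moved both ways. Of 23 relatives, 15 were tested, of which 4 were higher, 5 lower and 6 not past the threshold on Day 3 against Day 0 (12% and 26.3% of all genes were higher and lower), with a median of -0.23. *Gpm6a*, the closest relative of *Gpm6b*, fell by 2.78 (SE 0.26, adjusted p = 1.86e-04 from limma), from a mean of 289 FPKM to 41.5. *Plp2* (-3.24), *Pmp22* (-2.54), *Cmtm4* (-1.59) and *Cmtm3* (-1.26) fell as well. *Cmtm5*, of the MARVEL-domain proteins to which *Mal* and *Pllp* also belong, rose by 1.46 (SE 0.23, adjusted p = 0.00194), from 36.1 to 98.2 FPKM. *Cldn14* rose by 3.48 (SE 0.69, adjusted p = 0.00532), from 0.671 to 16.1 FPKM, far under the 2866 of *Cldn11*. *Cldn12* was at -0.23 (adjusted p = 0.298) and *Cmtm6* at -0.09 (adjusted p = 0.797). The other 2 that rose, *Cldn19* and *Pmp2*, stayed under 10 FPKM in every library and were at 0 on Days 0 and 1. *Cldn19* reached 1 FPKM only on Day 3 (5.41 and 5.91). *Pmp2* reached it only in Day 2 replicate 2 (1.10) and Day 3 replicate 1 (4.03). Both thus passed the filter only through the later days, and their calls are not independent of it.

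For each of the 7 genes, the 3 tested genes with the most similar course over the 8 libraries (Pearson r of log2(FPKM + 1)) are given as a description. The libraries share the days, so any gene that rises steadily resembles another. For *Mbp* they were *Ppfibp2* (r = 0.997), *Abca2*, a lipid transporter (0.995), and *Wscd1* (0.995). For *Mobp* they were *Pcdh9* (0.994), *Plk3* (0.992) and *Cln8* (0.992). For *Cnp* they were *Ugt8a*, the galactosyltransferase of myelin lipid synthesis (0.999), *Tmem88b* (0.998) and *Rap1gds1* (0.996). *Ugt8a* had means of 119.5, 347, 623 and 616 FPKM, so it also levelled off after Day 2. For *Cldn11* they were *Sgk2* (0.995), *5430435G22Rik* (0.994) and *Fam172a* (0.993). For *Mal* they were *Arl2* (0.991), *Car14* (0.990) and *Dock10* (0.989). *Car14* was listed at 0 on Days 0 and 1 and had means of 0.757 and 6.27 FPKM on Days 2 and 3. For *Gpm6b* they were *Caskin1* (0.982), *Id2*, an inhibitor of OL differentiation (0.976), and *C230081A13Rik* (0.971). *Id2* had means of 65.2, 97.4, 49.7 and 37.5 FPKM. For *Pllp* they were *Klhdc1* (0.982), *Hspb8* (0.967) and *Commd9* (0.957).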

How the data were processed

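The authors made stranded mRNA libraries of 8 samples, processed the reads and deposited 1 table of FPKM for 23427 entries, with replicates not pooled. The processing notes name the genome build mm10, and the aligner and gene model are not given in the sources used here. The study's methods name DESeq2, which needs counts and was not used. FPKM gives no depth, so the depth (950000 to 1520000 fragments a library) was estimated from the steps of low values, with 3 fragments as the floor of what can be measured. Days and replicate numbers came from the labels. Genes reaching an FPKM of 1 in 2 or more libraries were tested on log2(FPKM + 1), a scale that understates the change of low genes, with limma 3.58.1 in R 4.3.3 (trend, all 8 libraries, day as a factor, Benjamini-Hochberg over 12208 genes, threshold 0.05). Slopes were tested by exact permutation in Python 3.11.15. The p-values measure the spread between these libraries, which the study's methods call independent replicates of the culture and the labels do not describe further.

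The replicate numbers of the labels were used as a block in a second fit. Across genes, the differences between replicates on any 2 days had a Pearson r of 0.164 to 0.285 (6 pairs of days, all above 0.1). Same-numbered libraries thus share a part of their differences. What they have in common is not given by the labels or the study's methods, so calls made only with the block rest on an assumed pairing.

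Coordinates came from GENCODE M21 (GRCm38), where 21431 entries matched by symbol and chromosome, and upstream sequences from RefSeq. The model was tested on simulated data of 12208 genes for Day 3 against Day 0. Of 50 genes each changed by 1, 2, 4 and -2 on the log2 scale, 56%, 98%, 100% and 98% were called. Among the unchanged genes 9 were called. The simulated noise was independent between libraries, with a spread set by the mean level. It held no replicate effect, so these rates do not carry over to members such as *Pllp*. The genes named are the 7 members, the 3 most similar genes of each, the 3 highest and 3 lowest of the other myelin genes, family relatives with a mean FPKM of at least 10 on a day, genes that overlap a member, and cell type markers. *Cldn19*, *Pmp2*, *Ermn*, *Hapln2* and single values of named genes were picked after their values were seen. The members and lists were chosen with earlier results of these data known.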

Additional observations from a re-analysis of the deposited data

How the results depend on the processing

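The 6 rises from Day 0 to Day 3 kept their direction under every alternative run: a pseudocount of 0.1, no filter, a filter of FPKM of at least 10, equal sums, quantile normalization, median ratio scaling, the replicate block, only the days compared, no trend, and each library left out. The count was 5 to 6, with *Pllp* lost without a filter (adjusted p = 0.0655) and without a trend (adjusted p = 0.0640, both limma). The depth limits *Mal* and *Mobp* on Days 0 and 1, and a lone library left in a day is assumed to vary like the others. Median ratio scaling moved the median of all genes from -0.31 to -0.04 and the split from 1460 higher and 3207 lower to 2137 and 2045. Over all alternatives, the genes of the whole table called higher and lower numbered 965 to 2137 and 1799 to 3551 for Day 3 against Day 0, 216 to 836 and 359 to 1100 in the first step (615 and 923 as reported), 0 to 371 and 0 to 436 in the middle step (264 and 211), 0 to 119 and 0 to 145 in the last step (30 and 6), 0 to 226 and 0 to 143 for the middle against the first step (84 and 44), and 422 to 1319 and 748 to 1939 for the slope (846 and 1939). The share of total FPKM without mitochondrial genes could not be recomputed, because the table lists 0 of them.

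With the replicate number as a block, 1 member was lower on Day 3 than on Day 0. In the first step 4 were higher and in the last step 3. The block changed no other limma call. *Cldn11* alone was gained in the first step, making 3, with the filter of 10 (adjusted p = 0.0390), equal sums (0.0313), median ratio scaling (0.0350) and quantile normalization (0.0181, all limma). Members lower on Day 3 than on Day 0 were also 1 with only the days compared (0 to 1 without a library). In the middle step *Mobp* lost its call with a pseudocount of 0.1 (adjusted p = 0.0673), without a filter (0.0729) and without a trend (0.0803, all limma). The count of 4 was 2 without a filter, 2 with quantile normalization and 1 without a trend. It was 0 with only the days compared, where 0 of 12208 genes passed (2364 at an unadjusted p under 0.05). In the last step it was 0 to 1 without a library, the 1 being *Mal* without Day 3 replicate 1 (adjusted p = 0.0192). The count of slopes was 3 on ranks and 3 to 5 without a library.

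A few values that passed no threshold changed sign. *Mal* in the first step was 0.00488 with equal sums, 0.00530 with median ratio scaling and 0.153 with quantile normalization, which also gave 0.187 for *Cnp* in the last step, -0.221 for *Cldn11* in the middle against the first step and 0.205 for *Mobp* in the last against the middle. Median ratio scaling gave -0.0454 for *Gpm6b* and -0.0349 for *Pllp* in that contrast. With each library left out in turn, the sign also changed for *Mal* (-0.203 to 0.189) and *Gpm6b* (-0.0910 to 0.651) in the first step, for *Pllp* in the middle (-0.351 to 1.57) and last step (-0.231 to 1.69) and in the middle against the first (-1.75 to 0.708), and in the last against the middle for *Mobp* (-1.47 to 1.46), *Gpm6b* (-0.488 to 0.725) and *Pllp* (-1.80 to 2.04). The cause was not tested.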
